A study of Rattus norvegicus with 183 samples.

Results

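The mitochondrial ribosomal protein genes described here are the rows of the deposited table whose whole symbol is Mrpl or Mrps followed by digits and at most 1 letter. That rule found 75 genes of the 38354 in the table, 46 with an Mrpl and 29 with an Mrps symbol, and it used no measured value. The samples are polyA RNA-seq libraries of outbred heterogeneous stock rats, made from posterior ventral tegmental area tissue, part of the midbrain and home to dopamine neurons. The labels give no treatment, genotype, sex or age, so all libraries form 1 group, and the divisions the labels show are the format of the animal's identifier, decimal or hexadecimal, and whether a library was relabelled. Of 183 samples described, 31 were labelled as removed and were not used.

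Mitochondria carry their own ribosome, which makes the few proteins that mitochondrial DNA encodes, most of them core subunits of the respiratory chain and of ATP synthase. All proteins of that ribosome are encoded in the nucleus, made on cytosolic ribosomes and imported, and they assemble with mitochondrial ribosomal RNA into a large and a small subunit. Some descend from bacterial ribosomal proteins and others exist only in mitochondria. Symbols follow history and not always place: Mrps18a and Mrps30 carry small-subunit names but sit in the large subunit, so 48 members are counted as large and 26 as small below.

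The libraries were restricted to those in which Th reached 10 CPM, the count per 1e+06 estimated counts of the library. Th encodes tyrosine hydroxylase, the rate-limiting enzyme of dopamine synthesis. This left 53 libraries with a decimal identifier, 87 with a hexadecimal one and 1 with another form, with Th between 577 and 3934 CPM. Their totals ran from 15.2 to 57.2 in units of 1e+06 estimated counts. The other 11 libraries went against the tissue label, with Th at 3.47 CPM or less. They were left out, and the main correlations are also given with them included. Whether each library came from a separate animal is known only from these identifiers, so p-values measure the spread between these libraries. Of the libraries with Th, 17 had been relabelled, and the main counts are also given without them. In bulk tissue, fewer cells of a type and less RNA per cell cannot be told apart.

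Members that move together invite a look at their promoters, and 60 of them have a promoter window in RefSeq (GRCr8), 300 bases long and reaching 50 bases past the transcript start. The start in that table is the one in the deposited file for 32 of the 60, and the genes whose sequences are shown are among these. For these genes the binding motifs of nuclear respiratory factor 1 (NRF1), of ETS-family factors such as GABPA, and of YY1 were searched, since all are known as regulators of nuclear genes for mitochondrial proteins. The letters searched, on both strands, were TGCGCA for NRF1, CCGGAAG for ETS factors and AAGATGGC for YY1, and the end of the ETS letters can run into the start of the YY1 letters, so that 1 stretch may count for both. The NRF1 letters were present in 16 of the 60 member windows, 26.7%, against 12.3% of the 12680 windows of all genes tested. The ETS letters were present in 21 windows, 35% against 15.4%, and the YY1 letters in 15, 25% against 4.87%. At least 1 of these motifs was found in 39 member windows, 65%, against 28.4% of all. A CCAAT box, CCAAT on either strand, was found in 43.3% of member windows and 37.0% of all. The median GC content was 56% in member windows and 60% in all. A match is a string of letters and not evidence that a factor binds there.

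The following stretches run 5′ to 3′ on the strand of the gene, up to 30 bases from the transcript start on. The first 4 begin 120 bases before the start and are shown because they hold each kind of motif, or none; capitals mark the motif letters. Mrpl53 was the member most correlated with the rest and has a pair of ETS motifs. Mrpl17 has the NRF1 letters in tandem and once more, Mrps18a has 1 motif of each kind with the YY1 letters at the start, and Mrps5, the member least correlated with the rest, has none. In the last sequence, from the shared start region of Mrpl46 and Mrps11, capitals mark the bases from the start the deposited file gives for Mrps11 to that of Mrpl46. The RefSeq table places the start of Mrps11 elsewhere, farther into that gene.
Mrpl53, chr4:117172923-117173072, plus strand: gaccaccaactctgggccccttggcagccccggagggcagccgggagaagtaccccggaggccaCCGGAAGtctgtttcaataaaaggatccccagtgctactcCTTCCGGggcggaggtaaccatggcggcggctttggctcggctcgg
Mrpl17, chr1:169575670-169575819, minus strand: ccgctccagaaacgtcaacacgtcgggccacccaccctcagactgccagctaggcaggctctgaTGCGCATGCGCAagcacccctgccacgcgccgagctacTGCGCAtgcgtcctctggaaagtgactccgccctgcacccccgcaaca
Mrps18a, chr9:22367351-22367500, minus strand: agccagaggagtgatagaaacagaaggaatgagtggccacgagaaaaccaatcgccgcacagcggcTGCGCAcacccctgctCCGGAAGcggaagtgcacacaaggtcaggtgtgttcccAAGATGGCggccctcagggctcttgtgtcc
Mrps5, chr3:135274213-135274362, plus strand: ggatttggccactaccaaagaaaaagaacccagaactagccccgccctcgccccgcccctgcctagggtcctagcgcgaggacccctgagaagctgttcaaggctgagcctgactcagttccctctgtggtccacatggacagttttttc
Mrpl46 with Mrps11, chr1:142117001-142117074, minus strand: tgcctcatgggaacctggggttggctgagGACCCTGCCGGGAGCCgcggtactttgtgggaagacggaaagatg

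Members with and without these motifs were similarly correlated with the rest. The 39 members with any of the 3 motifs had a median correlation (Pearson's r) with the mean of the other members of 0.72, and the 21 without had 0.69. With and without the YY1 letters the medians were 0.66 and 0.72. These are descriptions over genes, which are not independent replicates.

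Mrpl46 and Mrps11, 1 large-subunit and 1 small-subunit gene, start 15 bases apart on opposite strands by the file's positions, which are used for all distances between starts. They were among 22 members, 29.7% of 74, with a gene on the opposite strand that starts within 1000 bases and points away, an arrangement held by 11.3% of the 14331 protein-coding genes tested. The partners included Sars2, the mitochondrial seryl-tRNA synthetase, 92 bases from Mrps12, and Ptcd2, a mitochondrial RNA-binding protein, 64 bases from Mrps27. Fau, which encodes a cytosolic ribosomal protein, starts 65 bases from Mrpl49. Partners ranged from negatively to positively correlated. Over the libraries with Th, r between partners ran from -0.46, for Mrps18b and Ppp1r10, to 0.56, for Mrps12 and Sars2. The median over the 22 members was 0.17. Mrpl46 and Mrps11 had r = 0.41, and their pair enters that median for each of them.

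All but 1 of the members were expressed. The exception was Mrps21l, listed separately from Mrps21, with a median of 0 CPM, a highest value of 0.24 CPM and a count in 13 libraries. The other 74 passed the filter of a mean log2(CPM + 1) of at least 1, which 15546 genes passed, and they were measured with at least 98 estimated counts in every library. Their medians lay between 12.9 and 90.7 CPM. CPM is not corrected for transcript length, so levels are not compared between genes. Summed, the 74 genes took 1936 CPM in the lowest library, a median of 2321 and 3005 in the highest.

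**Figure D1:**
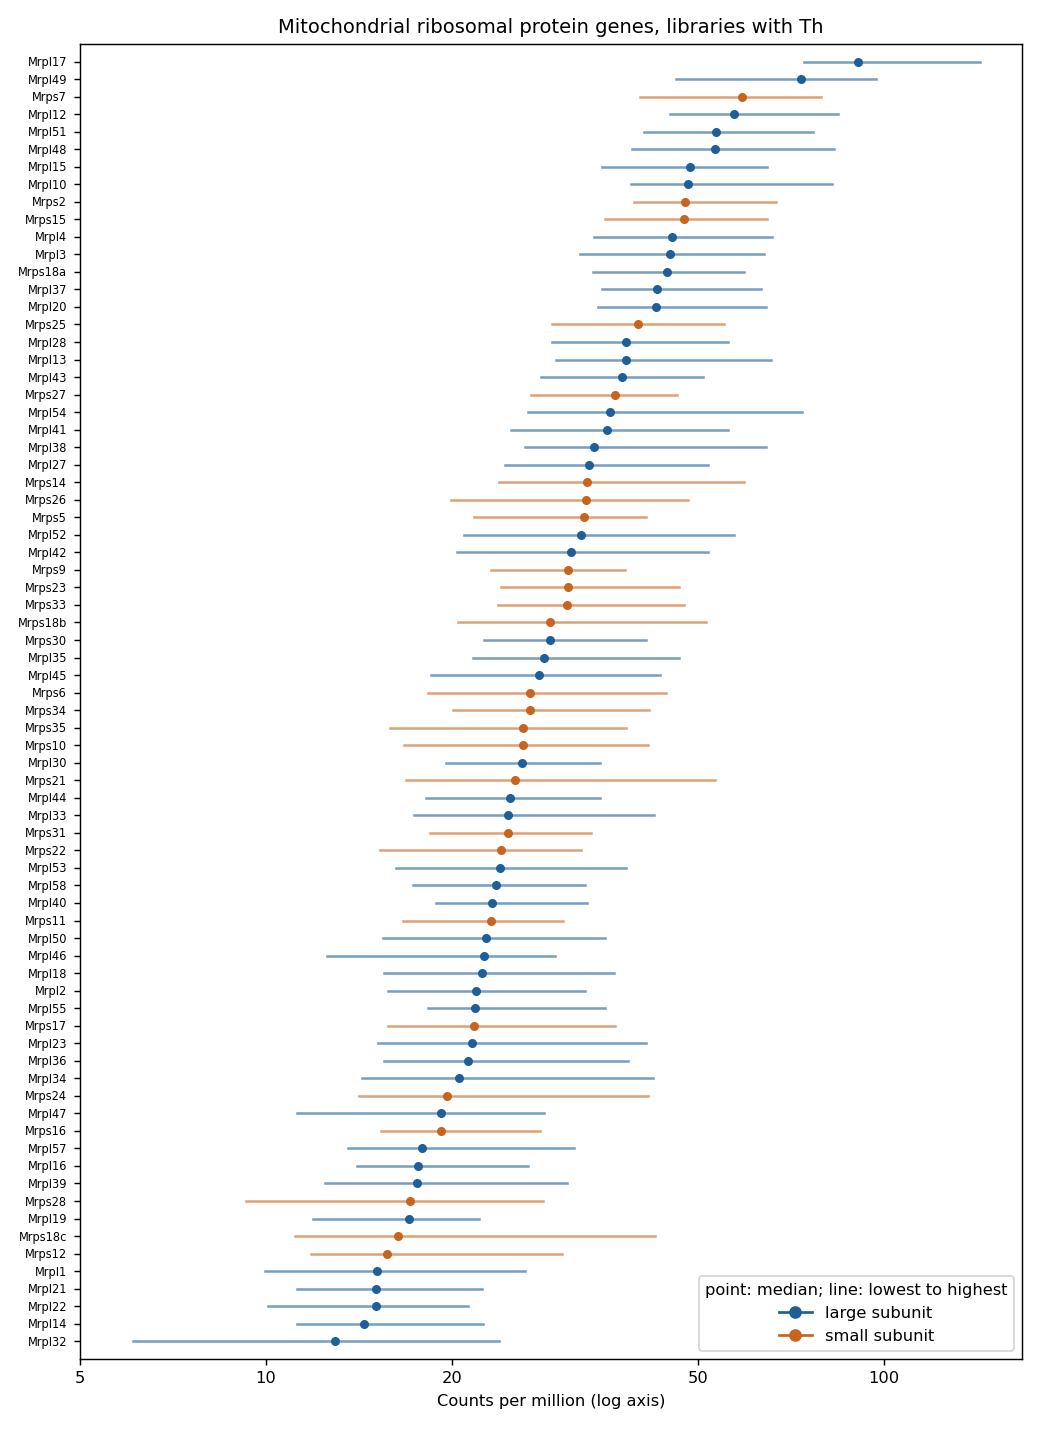
Level of each of the 74 members in CPM (log axis) over the libraries with Th. Points are medians, lines run from the lowest to the highest library, and colour gives the subunit. Mrpl17 has the highest median, 90.7 CPM, and Mrpl32 the lowest, 12.9 CPM.

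Mrpl17, a bacterial-type large-subunit protein, had a lowest value of 74.2 CPM and a median of 90.7. Next on this scale came Mrpl49, from 46.2 to 97.2 CPM with a median of 73.4, then Mrps7 (median 58.9), Mrpl12 (57.2) and Mrpl51 (53.6). Mrpl12 is the homologue of the bacterial stalk protein that recruits translation factors. At the other end were Mrpl32, from 6.10 to 23.9 CPM with a median of 12.9, and Mrpl14, Mrpl22, Mrpl21 and Mrpl1, with medians of 14.4, 15.1, 15.1 and 15.1 CPM. The ranges of neighbours in either order overlap.

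The members varied less between libraries than the median gene of like level, in 47 of 74 cases. Their SD over libraries, on the log2 scale, ran from 0.14 to 0.32 with a median of 0.19. For the 7275 other genes whose mean lay in the members' range the median SD was 0.22, and 36.5% of them had an SD below the members' median. It was 0.26 for all genes, 0.26 for 82 respiratory chain genes and 0.24 for 80 cytosolic ribosomal protein genes. Counting error, with an SD of 0.03 to 0.08, was less than the measured SD divided by 2 in all 74. This counting SD covers counting error alone.

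The narrowest members were Mrps27, a pentatricopeptide-repeat protein of the small subunit, at 26.8 to 46.2 CPM (SD 0.14), and Mrpl40, Mrpl43, Mrps9 and Mrps2, each also at 0.14. The widest was Mrps24, a bacterial-type small-subunit protein. It ran from 14.1 to 41.5 CPM around a median of 19.6, an SD of 0.32. Then came Mrpl52 (20.9 to 57.3 CPM, SD 0.28), Mrpl42 (from 20.4 CPM, SD 0.28), Mrpl34 (14.3 to 42.3 CPM, SD 0.28) and Mrps18c (11.1 to 42.6 CPM, SD 0.27). In each of these wide members the highest library stood farther from the median than the lowest did in CPM.

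Most pairs of members were positively correlated across libraries. Over the 2701 pairs the mean r was 0.43 and the median 0.47, and 2572 pairs were positive. The mean Spearman's rho was 0.43. Over all pairs of genes that passed the filter the mean r was 0.05, and over other genes in the members' range of level 0.07. Cytosolic ribosomal protein genes had a mean pairwise r of 0.55 and respiratory chain genes 0.61. Points in these correlations share library preparation, depth and the scaling to the library total. The mean r was 0.42 in libraries with decimal and 0.45 in those with hexadecimal identifiers, 0.43 with the 11 libraries lacking Th included, and 0.44 without the relabelled ones.

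Correlation was about as high between the subunits as within them. The mean r was 0.45 among large-subunit genes, 0.40 among small-subunit genes and 0.43 between the subunits. Members with a bacterial homologue had a median r with the rest of 0.71 (43 genes), and those specific to mitochondria 0.72 (31 genes). The tightest pairs joined Mrpl17 and Mrpl37 (r = 0.88), Mrpl17 and Mrpl10 (0.87), and Mrps24 and Mrpl34 (0.86). The first principal component held 47.5% of the variance of the members and 28.6% of that of all genes, and r between the members' mean z-score and the all-gene component was 0.75 in size. The respiratory chain score had 0.87 with the same component.

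**Figure D2:**
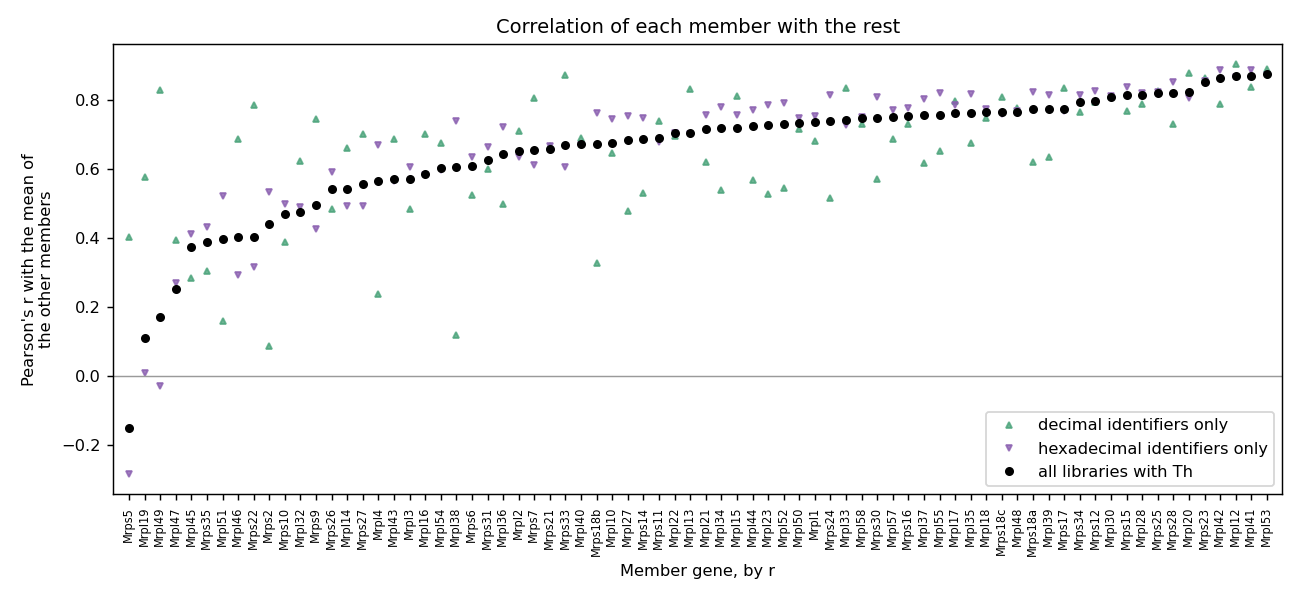
Pearson's r of each member with the mean z-score of the other 73, in order of r. Black circles are all libraries with Th, triangles the 53 decimal or 87 hexadecimal libraries alone. Most members lie above 0.5 and Mrps5, Mrpl19 and Mrpl49 fall far below in hexadecimal libraries. In decimal libraries Mrps2 (0.09), Mrpl38 (0.12) and Mrpl51 (0.16) are the lowest.

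Correlation with the mean of the others was over 0.5 in 61 members and over 0.7 in 39. Mrpl53, a mitochondrion-specific large-subunit protein, had the highest value, 0.88, and went from 16.2 to 38.3 CPM around a median of 23.9. Mrpl41 (0.87), Mrpl12 (0.87), Mrpl42 (0.86) and Mrps23 (0.85) followed, and each of these 5 had r of at least 0.79 within both identifier formats. Without the 2 libraries farthest from the median member score, r for Mrpl53 was 0.86.

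Over all libraries with Th, a few members did not follow the rest. Mrps5, a homologue of a bacterial protein at the mRNA entry of the small subunit, had r = -0.15 with the others. Its values ran from 21.7 to 41.3 CPM around a median of 32.8. Mrpl19, at the interface of the subunits, had 0.11, Mrpl49, a mitochondrion-specific large-subunit protein, 0.17, Mrpl47, near the peptide exit, 0.25, and Mrpl45, which lies where the ribosome meets the inner membrane, 0.37. The values of the first 3 differed between the identifier formats, as did those of other members. In decimal libraries r was 0.40 for Mrps5, 0.58 for Mrpl19 and 0.83 for Mrpl49, and in hexadecimal libraries -0.28, 0.0085 and -0.03. The lowest members in decimal libraries went the other way. Mrps2 had 0.09 in decimal and 0.53 in hexadecimal libraries, Mrpl38 0.12 and 0.74, and Mrpl51 0.16 and 0.52. In both formats r was over 0.3 in 64 of 74 members.

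The genes most correlated with Mrps5, Mrpl19, Mrpl49 and Mrpl47 were of other kinds, and were named after their values were seen. For Mrps5 they were Grsf1 (r = 0.71), a mitochondrial RNA-binding protein, then Gtf2f1 (0.69), Leo1 (0.69), Hsp90aa1 (0.69) and Bag5 (0.68). For Mrpl19 they began with Cfap36 (0.69) and Ddx1 (0.68), and included Immt (0.66), a protein of the cristae junctions. For Mrpl49 they were Cct5 (0.79) and Cct3 (0.78), subunits of the cytosolic chaperonin, with the cytosolic ribosomal protein gene Rpl4 (0.78). Hspd1, the mitochondrial chaperonin, was among those of Mrpl47 (0.68).

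Of the gene lists scored, that of the respiratory chain, nuclear genes for complexes I to V, was the one most correlated with the members. A score was made for each list, the mean over its genes of the standardized log2 values. The member score and the respiratory chain score had r = 0.94 over the libraries with Th (rho 0.95; 0.94 without the 2 farthest libraries; 0.91 in decimal and 0.96 in hexadecimal libraries). It was 0.95 with the 11 libraries lacking Th. By complex, r was 0.93 for complex I (37 genes), 0.81 for complex II (4), 0.94 for complex III (9), 0.91 for complex IV (14) and 0.95 for complex V (18).

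With the cytosolic ribosomal protein score r was lower, at 0.70 (rho 0.66; 0.68 without the 2 farthest; 0.79 in decimal and 0.68 in hexadecimal libraries; 0.71 with the libraries lacking Th). The last 2 scores had r = 0.59 with each other. After the cytosolic ribosomal protein score and the format had been regressed out, r between members and respiratory chain was 0.92. The reverse, members and cytosolic ribosomal proteins after the respiratory chain score, gave 0.54. Of 74 members, 57 had a higher r with the respiratory chain score than with the cytosolic one. The share of all genes was not taken for this count. Removing the respiratory chain score and the format also took most of the members' own correlation away, leaving a mean pairwise r of 0.07, against 0.30 after the cytosolic ribosomal protein score.

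**Figure D3:**
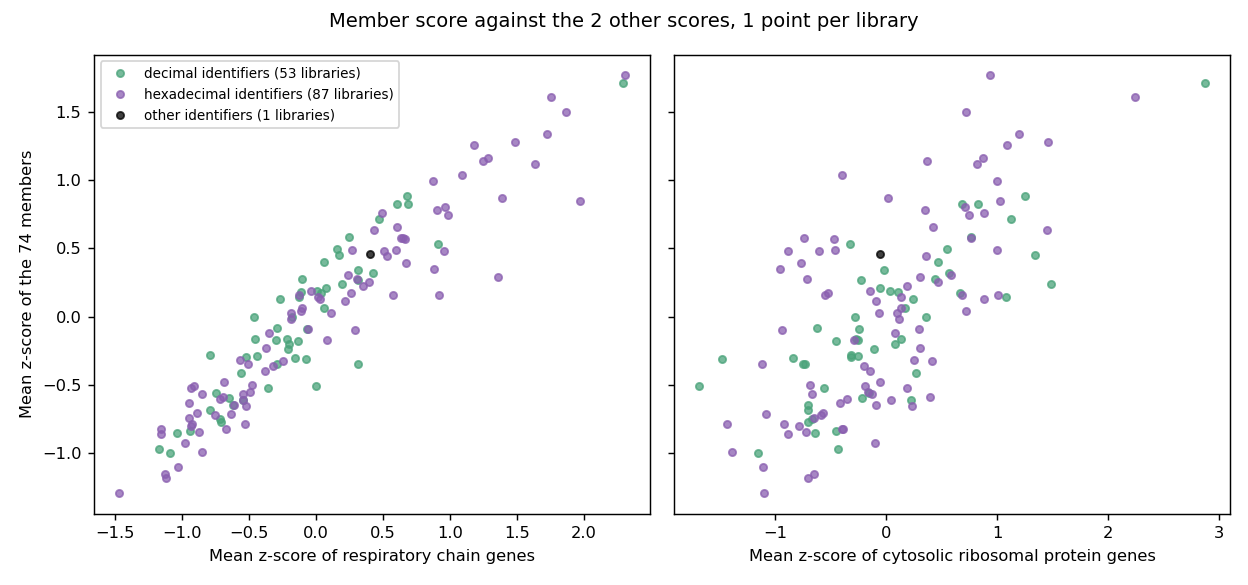
Mean z-score of the 74 members against that of respiratory chain genes (left, r = 0.94) and cytosolic ribosomal protein genes (right, r = 0.70), 1 point per library with Th, colour by identifier format. The left cloud is narrow, and the right one wide.

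Among the 100 other genes with the highest r with the member score, 27 were in the respiratory chain list. None was in the cytosolic ribosomal protein list, and 73 were in neither. Those lists held 82 and 80 genes, where 15472 other genes were ranked. The 73 included Rpl36al1 (0.83), which has a ribosomal protein symbol but was not in the list. The genes named here were chosen after their values were seen. At the top stood Atp5pd (0.91), Park7 (0.91), Cox4i1 (0.91), Atp5po (0.90) and Ndufb2 (0.90). Park7 encodes DJ-1, a redox-sensitive protein linked to Parkinson's disease. At the negative end were, in order, Hcfc1 (-0.88), Srcap (-0.88), Pcnx1 (-0.84), Lcor (-0.84) and Cbl (-0.84). The median r of the 15472 other genes was -0.13.

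To test single members, each gene's log2(CPM + 1) was fitted on a score with the identifier format as covariate by limma, over 140 libraries and all 15547 genes passing there (the library with another identifier was dropped). Slopes are log2 units per SD of the score over the libraries in that fit. Slopes from a subset of libraries therefore have another SD as their unit. A call is an adjusted p (Benjamini-Hochberg over all genes) under 0.05. With the respiratory chain score 71 of 74 members rose and 1 fell, where 27.9% of all genes rose and 50.7% fell. The members' median slope was 0.13 and that of all genes -0.04. With median-of-ratios size factors in place of library totals, 73 members rose and none fell, beside 37.9% and 41.5% of all genes. Without the relabelled libraries 71 rose and 1 fell.

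Mrps24 had the steepest slope on the respiratory chain score, 0.26 ± 0.015 (SE), with limma's adjusted p = 9.8e-35. Mrpl42, a mitochondrion-specific large-subunit protein, had 0.25 ± 0.011, and Mrps12, whose bacterial homologue sits at the decoding centre, 0.22 ± 0.010. Mrps12 went from 11.8 to 30.2 CPM around a median of 15.7. Mrpl34 and Mrps18c had 0.21 each. Mrpl53 had 0.19 ± 0.0099. The member that fell was Mrps5, with -0.03 ± 0.013 and limma's adjusted p = 0.037. With size factors its slope was 0.01, which did not pass. Mrpl49 (0.0016 ± 0.015) and Mrpl19 (0.01 ± 0.012) did not pass. Mrpl49 passed as a rise with size factors (0.0313), in decimal libraries alone (0.0973) and with the share of counts in genes spanning under 5 kb as a covariate (0.0617), and Mrps5 had positive slopes in the last 2 of these (0.0549 and 0.0699).

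On the cytosolic ribosomal protein score 69 members rose and none fell, where 27.4% of all genes rose and 27.1% fell. Without the relabelled libraries the counts were also 69 and 0. The median slope was 0.10 for members and -4.6e-05 for all genes. The steepest were Mrps18c (0.21 ± 0.015), Mrpl52 (0.20 ± 0.016), Mrpl33 (0.19 ± 0.014), Mrps24 (0.17 ± 0.022) and Mrpl54 (0.17 ± 0.014). The 5 members that did not pass in limma were Mrpl47 (-7.1e-04 ± 0.016), Mrps2 (0.01 ± 0.012), Mrps5 (-0.02 ± 0.013), Mrpl19 (0.0084 ± 0.012) and Mrpl38 (0.04 ± 0.020). The share of counts in genes spanning under 5 kb moved with the member score (r = 0.80), and with that share as a covariate 37 members rose and 10 fell, beside 45.2% and 15.9% of all genes. On the respiratory chain score, with that covariate, 63 members rose and none fell, beside 20.3% and 42.1%. With it the cytosolic slopes of Mrps24, Mrps18b, Mrpl38 and Mrps2 turned to -0.0201, -0.0834, -0.126 and -0.0569. That of Mrps24 did not pass, and the others did. This covariate was chosen after the data were seen.

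With both scores in 1 fit the members divided. On the respiratory chain score 69 rose and 1 fell, where 25.6% of all genes rose and 54.6% fell, with a members' median of 0.11. On the cytosolic ribosomal protein score 34 rose and 10 fell, where 46.9% of all genes rose and 16.4% fell, so the members' counts were close to the background. With size factors the counts on the cytosolic score were 29 and 13, beside 28.9% and 25.0% of all genes. On the respiratory chain score they were 73 and 0, beside 36.5% and 40.6%.

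**Figure D4:**
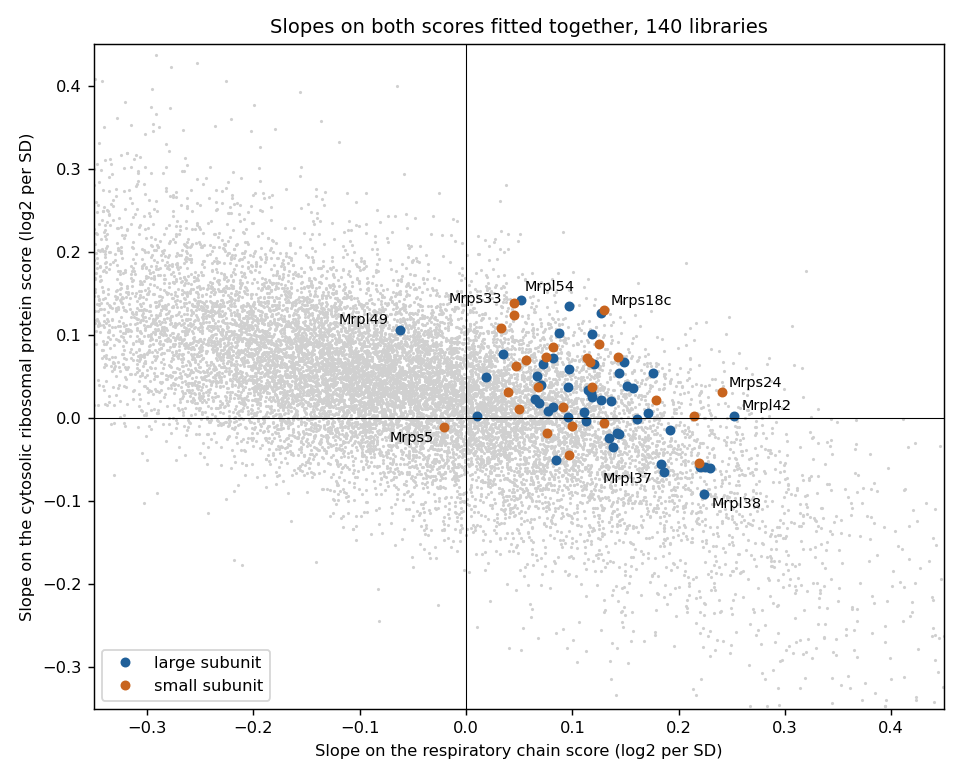
Slopes from the fit with both scores, on the respiratory chain score (x) and the cytosolic ribosomal protein score (y), in log2 units per SD, 140 libraries. Coloured points are the 74 members and grey points 14135 other genes, with 1338 outside the axes; nearly all members lie right of 0, and they lie on both sides of 0 on the y axis.

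The members with the largest joint slopes on the cytosolic score were Mrpl54 (0.14 ± 0.017), Mrps33 (0.14 ± 0.014), Mrpl33 (0.14 ± 0.015), Mrps18c (0.13 ± 0.016) and Mrpl52 (0.13 ± 0.017). Mrpl54 went from 26.5 to 73.8 CPM around a median of 36.0, and Mrps33 from 23.7 to 47.5 around 30.7. The most negative were Mrpl38 (-0.09 ± 0.016, limma's adjusted p = 1.6e-07), Mrpl37 (-0.07 ± 0.012), Mrpl1 (-0.06 ± 0.019), Mrpl17 (-0.06 ± 0.014) and Mrpl39 (-0.06 ± 0.014). The genes at this end had steep slopes on the respiratory chain score in the same fit, 0.23 for Mrpl1, 0.22 for Mrpl17 and 0.22 for Mrpl38. Steepest there were Mrpl42 (0.25) and Mrps24 (0.24). Mrpl49 fell on it, at -0.06 ± 0.016 (limma's adjusted p = 2.6e-04), and Mrpl46, Mrps5, Mrpl19 and Mrps10 did not pass. In decimal libraries alone Mrpl49 had 0.0475 on it, and with the short-span share as a covariate 0.0412, and neither passed. Mrpl17 had 0.0027 on the cytosolic score in decimal libraries alone, which did not pass.

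Mammals have 3 paralogues of the bacterial protein S18, here set side by side. In the division by class above, Mrps18a and Mrps18b were counted as mitochondrion-specific, as the ribosomal protein nomenclature lists them, and Mrps18c as the bacterial homologue. Mrps18a, now in the large subunit, went from 33.9 to 59.4 CPM around 44.5, Mrps18b from 20.5 to 51.6 around 28.9, and Mrps18c from 11.1 to 42.6 around 16.4. Mrps18a was thus the narrowest, with an SD of 0.16 against 0.26 and 0.27. All rose with the respiratory chain score, by 0.12 ± 0.0094, 0.19 ± 0.015 and 0.21 ± 0.015, and with the cytosolic score, by 0.07, 0.08 and 0.21. With the short-span share as a covariate Mrps18b fell on the cytosolic score, at -0.0834. In the joint fit the slope on the cytosolic score was 0.0074 for Mrps18a, which did not pass, -0.05 for Mrps18b, which fell, and 0.13 for Mrps18c, which rose. Differences between paralogues were not tested. Mrpl58, a peptidyl-tRNA hydrolase that became part of the large subunit and rescues stalled ribosomes, rose with both scores (0.11 ± 0.010 and 0.11 ± 0.011). None of the 75 symbols found by the rule was Mrps36, Mrpl9, Mrpl11 or Mrpl24, and these genes were not sought as members under other symbols.

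Other genes of mitochondrial translation are set beside all genes tested, of which 27.9% rose and 50.7% fell on the respiratory chain score. Of 5 subunits with other names, Chchd1 (0.19 ± 0.016), Aurkaip1 (0.15 ± 0.011) and Dap3 (0.09 ± 0.013), the GTP-binding protein of the small subunit, rose with the respiratory chain score, and Gadd45gip1 and Ptcd3 did not pass. Of 20 assembly factors, 10 rose and 3 fell, with Mpv17l2 and Malsu1 at 0.16. Of 14 translation factors, 4 rose and 6 fell, near the shares of all genes. Oxa1l, which inserts the new proteins into the inner membrane, was at 0.14 ± 0.0096, and the elongation factor gene Tufm at 0.09 ± 0.011, while the release and recycling factor genes Mtrfr and Gfm2 fell by 0.17 and 0.14. The lists were not compared by a test.

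Of 17 mitochondrial aminoacyl-tRNA synthetases, which charge the tRNAs the ribosome reads, 4 rose and 10 fell, also near those shares, from Sars2 at 0.13 ± 0.017 to Ears2 at -0.22 ± 0.019. Of 11 genes of mitochondrial transcription and RNA handling, 5 rose and 3 fell, with Slirp at 0.20 ± 0.017 and its partner Lrpprc at -0.05 ± 0.015. Of 9 nuclear regulators 1 rose and 7 fell. Esrra rose by 0.08 ± 0.022. Gabpa (-0.20 ± 0.019), Nrf1 (-0.11 ± 0.014) and Yy1 (-0.11 ± 0.010), whose motifs were searched in the promoters, fell, as did the coactivator gene Ppargc1b (-0.44 ± 0.034). The members had a mean pairwise r of 0.43, and these lists between 0.09, for transcription and RNA, and 0.23, for the regulators.

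**Figure D5:**
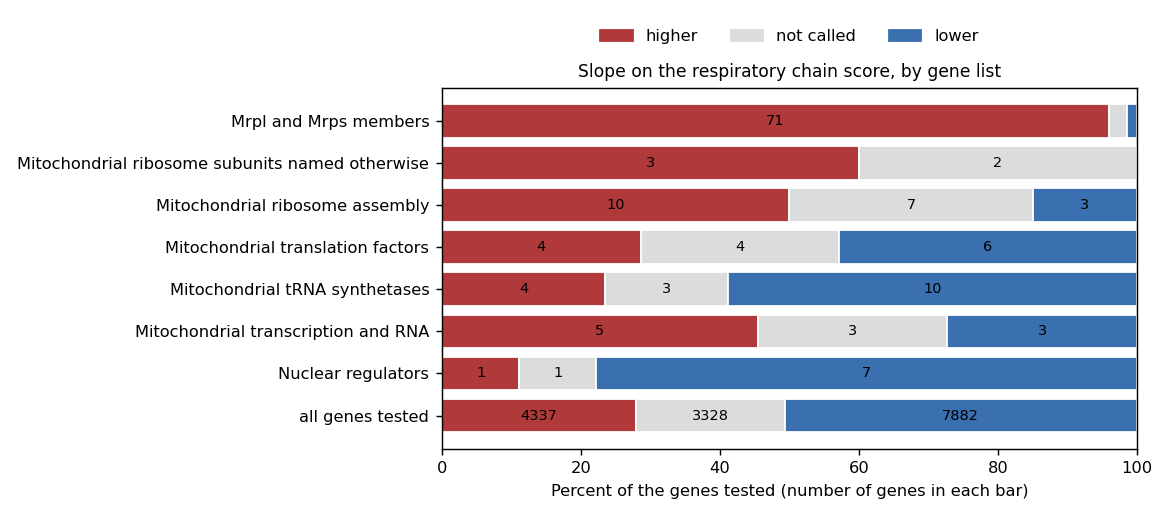
Share of each gene list that rose, fell or did not pass the test on the respiratory chain score (limma, adjusted p under 0.05, 140 libraries), with the number of genes in each bar. The members' bar is 71 higher of 74; 10 of 17 tRNA synthetases and 7 of 9 nuclear regulators are lower, where 50.7% of all genes are.

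The identifier format was tested as a comparison of 87 hexadecimal with 53 decimal libraries; the labels do not say what the format stands for. Of 74 members 16 were higher and 7 lower in hexadecimal libraries, where 14.3% of all genes were higher and 23.8% lower. With size factors 21 were higher and 5 lower, beside 18.4% and 19.1%. The summed members took 2314 ± 184 CPM (SD, n = 53) in decimal and 2367 ± 262 (n = 87) in hexadecimal libraries. The largest differences were Mrps24 at 0.18 ± 0.054 log2 units, Mrpl10 at 0.17 ± 0.033, Mrpl38 at 0.17 ± 0.041, Mrpl36 at 0.17 ± 0.042 and Mrps12 at 0.15 ± 0.043. The members that were lower were Mrpl32 (-0.16 ± 0.044), Mrpl49 (-0.15 ± 0.030), Mrpl47 (-0.15 ± 0.034), Mrpl19 (-0.12 ± 0.024), Mrps5 (-0.11 ± 0.026), Mrps22 (-0.09) and Mrpl15 (-0.08). Of the 5 members least correlated with the rest, Mrps5, Mrpl19, Mrpl49 and Mrpl47 were among these 7. With the share of counts in short genes as a covariate, none was higher and 29 were lower, beside 1.99% and 3.94% of all genes. With the library total as a covariate 2 were higher, and the share of all genes was not taken there. With the short-span share Mrps24 turned to -0.0568 and Mrps12 to -0.0225, and neither passed.

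Slopes on the respiratory chain score were compared between the formats, per SD of the score over all 140 libraries. The difference was positive in hexadecimal libraries for 15 members and negative for 15, where 10.2% of all genes were called positive and 21.4% negative. The negative calls were thus near the share of all genes. Mrps24 rose by 0.12 ± 0.030 in decimal and 0.30 ± 0.016 in hexadecimal libraries, and Mrpl38 by 0.03 ± 0.028 and 0.21 ± 0.014. Mrps5 had 0.07 ± 0.026 in decimal and -0.05 ± 0.013 in hexadecimal libraries, and Mrpl49 0.14 ± 0.030 and -0.03 ± 0.015, so the signs were opposite. With size factors 17 members were called positive and 10 negative, beside 13.9% and 15.0% of all genes. For the slope on the cytosolic ribosomal protein score the difference passed for 1 member, Mrpl23 (0.11), where 0.232% of all genes were positive and 0.360% negative. With size factors 24 members passed in place of 1, beside 12.7% and 10.1% of all genes.

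Scores of cell types went with the members less closely. On the score of 10 dopamine neuron markers no member rose and 12 fell, where 14.4% of all genes rose and 13.4% fell. The falls were thus near the share of all genes, with Mrpl3 at -0.07 ± 0.015. With size factors none rose and 4 fell, beside 14.0% and 13.6% of all genes. Oligodendrocytes are the myelin-forming cells, and 37 members rose with their score and none fell, where 14.9% of all genes rose and 32.4% fell. Mrpl1 (0.10 ± 0.021) and Mrpl32 (0.10 ± 0.020) were steepest. With size factors all 74 rose, beside 31.9% and 32.8% of all genes.

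On the astrocyte score 2 members rose and 49 fell, where 50.9% of all genes rose and 20.1% fell. Those that rose were Mrpl49 (0.05 ± 0.014) and Mrps5 (0.03 ± 0.012), and the steepest fall was in Mrps18b (-0.15 ± 0.017). On the endothelium score 4 rose and 34 fell, where 51.7% of all genes rose and 17.7% fell. Those that rose were Mrpl49, Mrps5, Mrps22 and Mrpl19. With size factors none rose on either score, 66 and 48 fell, and all genes stood at 30.1% and 29.7%, and at 27.8% and 26.8%. On the score of synaptic vesicle genes 48 members rose and 3 fell, Mrpl49, Mrps5 and Mrpl19, where 22.7% of all genes rose and 49.7% fell. With size factors 68 rose and none fell, beside 36.0% and 39.5%.

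The member score had r = 0.27 with the oligodendrocyte score, -0.38 with astrocytes, -0.24 with endothelium, -0.52 with ependyma, -0.44 with meningeal fibroblasts and -0.14 with dopamine neurons. The value for astrocytes was -0.08 in decimal and -0.48 in hexadecimal libraries, and that for synaptic vesicle genes -0.09 and 0.57. The part of cell composition in the members' common movement was not tested. With log2 library total the score had r = -0.19. On depth itself 1 member rose, Mrpl51, and 4 fell, Mrpl17, Mrpl37, Mrpl10 and Mrpl46, where 1.27% of all genes rose and 2.35% fell. With size factors 0 rose and 1 fell, beside 2.24% and 1.10%.

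To look for members with clusters of libraries, the widest empty interval of log2 values with at least 5 libraries on each side was taken for every gene. The median was 0.04 for members and 0.06 for all genes, and 11 members exceeded the latter. The widest was in Mrpl49, 0.12, which set 5 low libraries apart from the others, and 13.9% of all genes had an interval at least as wide. Mrps12 (0.12, 5 high libraries), Mrps26 (0.09, 5 high), Mrpl57 (0.09, 7 high) and Mrpl41 (0.08, 5 low) followed. After the mean of the other members and the format were regressed out, the widest interval was 0.10, again in Mrpl49, and 19.4% of all genes had one as wide.

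What remained of single members after that regression was compared with genes within 500 kb. Of 1275 such pairs 42, or 3.29%, had r over 0.5 in size, and of 188 within 50 kb 10, or 5.32%, did. Most of those 10 belonged to Mrps18b (with C20h6orf136, Atat1, Gnl1 and Prr3) and to Mrpl49 (with Vps51, Syvn1 and Zfpl1). For pairs of a member with a gene on another chromosome it was 2.64% of 1073064. Taking for each member its strongest neighbour, the highest values in size were those of Dpf2 with Mrpl49 (-0.74), Wbp2 with Mrpl38 (0.73) and Tubb5 with Mrps18b (0.67). Mrpl49 had a further close one in Vps51 (-0.72), the strongest of the pairs within 50 kb. These pairs were chosen after their values were seen and have no test.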

How the data were processed

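PolyA RNA-seq libraries of 1 brain region were analysed. The deposited table holds log2 values, read here from the values themselves as log2 of the authors' estimated counts plus 1, and kallisto 0.48 is named per the submitters' processing notes. Build and annotation are not given in the sources used here. Every value x was turned back to 2 to the power x, minus 1, scaled to CPM of the library total, and used as log2(CPM + 1). Genes with a mean of at least 1 were kept. Slopes came from limma 3.58.1 (lmFit, eBayes with trend, R 4.3.3), with identifier format as a term and Benjamini-Hochberg adjustment over all genes, on 140 libraries. The fit was also run on simulated data with known slopes and independent noise for each gene. Genes here are correlated, so that run does not show how far the calls hold. Descriptions used Python 3.11.15, numpy 2.4.6, pandas 2.3.3, scipy 1.17.1 and matplotlib 3.10.9. A fold on this scale understates changes of low genes.

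All libraries with Th of at least 10 CPM entered, with totals of 15.2 to 57.2 in units of 1e+06 estimated counts; depth limits precision to the counting SD given for members. Members and lists were chosen with earlier results of these data known. Genes were named by rule: the 5 extreme members by level, SD, correlation, interval and, per fit, slope; the S18 paralogues and Mrpl58; and listed genes. Other names are said to be chosen after their values were seen. Alternatives were size factors, filters, the pseudocount 0.5, subsets of libraries and covariates. Transcript lengths were not used here, so no value is per length.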

Additional observations from a re-analysis of the deposited data

Results flagged for a closer look

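The slope of a member on a score differed between libraries with hexadecimal and decimal identifiers, by limma's test of the difference itself, for the following named members. On the cytosolic ribosomal protein score the difference, hexadecimal minus decimal, was 0.11 for Mrpl23 (adjusted p = 0.0496), whose slopes were 0.11 in decimal and 0.22 in hexadecimal libraries.

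On the respiratory chain score, steeper slopes in hexadecimal libraries were found for Mrps24 (difference 0.18, limma's adjusted p = 1.5e-05), Mrpl38 (0.17, 6.3e-06), Mrpl34 (0.17, 2.7e-05), Mrps18b (0.15, 3.1e-04) and Mrpl52 (0.13, 0.0074). Shallower or opposite slopes were found for Mrpl49 (-0.17, limma's adjusted p = 3.6e-05), Mrpl13 (-0.14, 1.8e-05), Mrps5 (-0.13, 2.3e-04), Mrpl46 (-0.12, 0.0026) and Mrpl32 (-0.11, 0.0468). Mrpl13 had 0.25 in decimal and 0.10 in hexadecimal libraries. On that score 10.2% of all genes had a positive difference that passed and 21.4% a negative one. The count of members with a negative difference was near that share. What the identifier format stands for is not in the labels, so its part cannot be told apart from any other difference between these libraries.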

How the results depend on the processing

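No paired analysis was possible because values exist for 1 group only and replicate numbers were given in accession order. Of 771 values of named members under alternatives, 688 kept their side of the threshold, 38 fell below it, 23 passed it and 22 reversed. Among the 688, direction was not compared where neither fit passed. The cause of each change below was not tested.

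With size factors the mean pairwise r was 0.56 and the widest interval 0.16. No member was lower on the respiratory chain score, alone or jointly, 4 were lower on the dopamine neuron score and 74 higher on the oligodendrocyte score. The shares of all genes with size factors stand beside each fit above. None was higher on the astrocyte or endothelium score or lower on the synaptic vesicle score; on depth 0 were higher and 1 lower, and 24 differed between formats on the cytosolic score. Slopes of Mrps5 became 0.0124 on the respiratory chain score, 0.0494 jointly, -0.0080 on astrocytes, -7.8e-04 on endothelium and 0.0053 on synaptic vesicles. Of these only the joint slope passed. Mrpl49 became -0.0022 on astrocytes and -0.0061 on endothelium, and Mrpl19 -0.0056 on endothelium and 0.0220 on synaptic vesicles. These slopes of Mrpl49 and Mrpl19 did not pass.

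With the short-span share as covariate, chosen after the data were seen, 37 members were higher and 10 lower on the cytosolic score, 0 lower on the respiratory chain score, alone or jointly, and 0 higher and 29 lower in hexadecimal libraries (median -0.0695). On the cytosolic score Mrps2 became -0.0569, Mrpl38 -0.126, Mrps24 -0.0201, which did not pass, and Mrps18b -0.0834. On the respiratory chain score Mrps5 became 0.0699, and jointly Mrps5 0.0672 and Mrpl49 0.0412, the last of which did not pass. For the format Mrps12 became -0.0225 and Mrps24 -0.0568, and neither passed.

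In decimal libraries alone 0 members were lower on the respiratory chain score, and jointly 4 on the cytosolic and 2 on the respiratory chain score. Mrps5 became 0.0549 on the respiratory chain score and 0.0862 jointly. In the joint fit Mrpl17 became 0.0027 on the cytosolic and Mrpl49 0.0475 on the respiratory chain score, and neither passed. In hexadecimal libraries alone 1 was lower on the cytosolic score and 2 jointly on the respiratory chain score. Without 6 libraries rich in Slc17a7, a gene of cortical neurons, 2 were lower jointly, 0 higher on depth, and the median difference between formats on the respiratory chain score was -0.0014. With all genes with any value, 0 were lower on the respiratory chain score. With the library total as covariate, 2 were higher in hexadecimal libraries. Shares of all genes were not taken in these subsets and settings, so their counts are not results about the members. With 10 libraries per side the widest interval was 0.0868. The planned coding-length covariate was not run. The smallest count of a member, 98, leaves counting error below the spread between libraries.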

Other observations

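In the 11 libraries with almost no Th, which entered no comparison, the summed members took 1903 to 2155 CPM with a median of 2020. In the libraries with Th the range was 1936 to 3005 CPM with a median of 2321.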
